A study of Homo sapiens with 6 samples.

Results

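The genes described here make cholesterol and control how much of it a cell makes: 31 symbols of biosynthetic enzymes, SREBP control proteins, sterol carriers and LXR receptors, taken as a list. All 31 were among the 16953 genes of the authors' deposited table. The RNA came from 6 sequenced samples of H1048, a human small cell lung cancer line of wild-type genotype per the labels, grown in medium with fetal bovine serum. ISP-I, the macrolide isovalerylspiramycin I, was given at 10 µM to 3 samples, and its solvent DMSO to 3 control samples, all for 48 h. Replicates within a group are described as biological in the series' design text. The authors' deposited table compares a set of libraries named D, E and F with a set named A, B and C, and the labels do not connect these letters with samples or treatments. Every value below is therefore the difference of set D to F from set A to C, and the treatment of each set is unknown here. The table also has columns of values per library under these letters. They were left out here because no label shows which sample, if any of these, a column holds, so values of single libraries, standard errors and depths are not given.

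Cholesterol is built from acetyl-CoA through mevalonate, isoprenoid units, farnesyl diphosphate and squalene, and lanosterol is then trimmed and reduced in the endoplasmic reticulum. The pathway is controlled by SREBP transcription factors, which are held in that membrane with their escort SCAP by INSIG proteins when sterols are plentiful. When sterols are scarce, SCAP carries SREBP to the Golgi in COPII vesicles, proteases release its active part, and genes of synthesis and uptake are transcribed. LXR receptors work in the other direction: oxysterols activate them to drive sterol export and the ubiquitin ligase MYLIP, which removes lipoprotein receptors.

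The upstream sequences of 4 members are shown here because their genes stand at different places in the comparison. All 4 hold the letters ATTGG, which also occurred in 40.6% of all genes with such a window. Of the 4, only SREBF2 holds the exact letters searched as the sterol regulatory element, and variants of these letters were not searched. No element bound by LXR was searched. The first is of SREBF2, which encodes the SREBP factor of cholesterol genes and was lower in D to F. The others are of LSS and NSDHL, enzymes with large decreases among the members, and of MYLIP, one of the larger increases. Each is taken from the 250 bases before the gene start that RefSeq annotates on GRCh38.p14, read 5′ to 3′ on the strand of the gene. GENCODE release 29 starts some of these genes farther upstream, and bases inside its gene span were left out, 26 for SREBF2, 50 for LSS and 96 for NSDHL. The sequences lie at chr22:41832855-41833078, plus strand for SREBF2, chr21:46228825-46229024, minus strand for LSS, chrX:152830813-152830966, plus strand for NSDHL and chr6:16128836-16129085, plus strand for MYLIP. Capitals mark the sterol regulatory element and then the inverted CCAAT box ATTGG in SREBF2, and ATTGG on either strand in LSS, NSDHL and MYLIP.
SREBF2: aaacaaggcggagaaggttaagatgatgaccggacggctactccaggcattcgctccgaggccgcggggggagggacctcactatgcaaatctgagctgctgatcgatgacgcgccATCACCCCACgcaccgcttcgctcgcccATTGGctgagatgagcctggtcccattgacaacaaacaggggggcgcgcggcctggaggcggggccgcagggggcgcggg
LSS: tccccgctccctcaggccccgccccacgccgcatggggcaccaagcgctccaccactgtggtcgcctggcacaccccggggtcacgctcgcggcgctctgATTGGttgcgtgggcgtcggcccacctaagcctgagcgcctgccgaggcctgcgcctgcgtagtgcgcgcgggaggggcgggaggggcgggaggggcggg
NSDHL: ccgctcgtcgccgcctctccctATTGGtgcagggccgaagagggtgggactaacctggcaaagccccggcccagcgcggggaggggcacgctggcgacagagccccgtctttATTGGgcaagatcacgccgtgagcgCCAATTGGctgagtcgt
MYLIP: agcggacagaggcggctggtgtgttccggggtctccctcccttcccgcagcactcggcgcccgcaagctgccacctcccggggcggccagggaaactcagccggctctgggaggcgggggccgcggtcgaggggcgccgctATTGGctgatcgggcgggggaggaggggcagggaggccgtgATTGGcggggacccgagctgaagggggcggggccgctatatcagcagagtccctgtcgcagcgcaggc

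Of the 31 members, 16 were lower and 9 higher in libraries D to F (adjusted p under 0.05, authors' deposited table), and 6 were not called. Over all 15976 genes with an adjusted p, 27.9% were lower, 29.7% were higher and 57.6% were called in either direction. These shares are also the background for the counts by role and by list below, and differences from them were not tested. The members' share lower was 51.6%, above that background, while their share higher, 29%, was close to it. The members were chosen with earlier results of these data known, so these shares are a description only. The differences were small. With a limit of 0.5 on the absolute log2 fold change, 9 members (29%) were lower and 5 (16.1%) higher in the authors' deposited table, where 21.7% of all tested genes were lower and 23.3% higher. Only SQLE and LSS passed a 2-fold limit, both lower, where 11.3% of all tested genes were at least 2-fold lower, and no member was at least 2-fold higher, where 12.8% of all tested genes were. The median log2 fold change was -0.34 over the members and 0.05 over all tested genes, and its median absolute size was 0.47 over the members and 0.67 over all tested genes. In bulk RNA of this kind, a lower value cannot be told apart from fewer cells that express the gene.

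**Figure D1:**
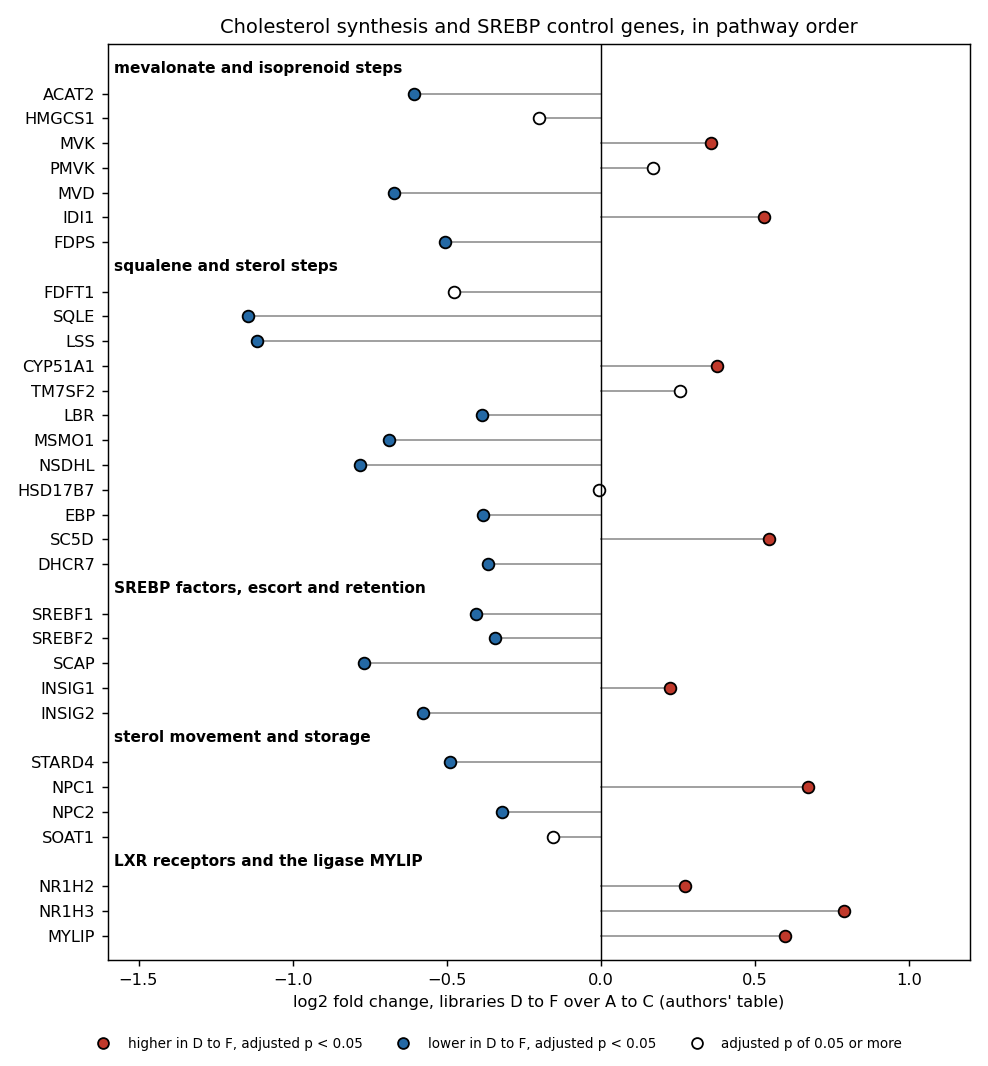
Log2 fold change of each of the 31 members, libraries D to F over A to C, as listed in the authors' deposited table. Members run down the page by role and in pathway order, filled points have an adjusted p under 0.05 and open points do not. The enzymes SQLE and LSS stand farthest to the left at -1.15 and -1.11, and NR1H3 stands farthest to the right at 0.79.

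The steps from acetyl-CoA to farnesyl diphosphate did not move as a block. Of 7 members here, 3 were lower and 2 higher in set D to F in the authors' deposited table, with a median log2 fold change of -0.20. ACAT2, the cytosolic thiolase that joins acetyl-CoA units, was lower at a log2 fold change of -0.61 (adjusted p = 6.52e-07, authors' deposited table). HMGCS1, which makes HMG-CoA, was listed at -0.20 and not called (adjusted p = 0.087, authors' deposited table). The kinases that follow were on the other side of 0 in the authors' deposited table. MVK, mevalonate kinase, was 1.28-fold higher (adjusted p = 0.0227), and PMVK, phosphomevalonate kinase, was listed at 0.17 without a call (adjusted p = 0.192). The next enzyme, the decarboxylase MVD, was 1.59-fold lower (chr16:88651935-88663161; adjusted p = 1.2e-06, authors' deposited table). IDI1, which interconverts the isoprenoid units, was 1.44-fold higher in the authors' deposited table (adjusted p = 2.06e-06). FDPS, which joins those units into farnesyl diphosphate, was 1.42-fold lower (adjusted p = 5.1e-08, authors' deposited table). In pathway order the called enzymes were thus lower and higher by turns, with HMGCS1 and PMVK, which were not called, between them.

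The squalene and sterol steps held the largest decreases among the members. Of 12 enzymes, 7 were lower and 2 higher in set D to F in the authors' deposited table, with a median log2 fold change of -0.38. SQLE, the squalene epoxidase and a rate-controlling step of the sterol branch, was 2.21-fold lower (chr8:124998497-125022283; -1.15 on the log2 scale; adjusted p = 2.7e-21, authors' deposited table). LSS, the cyclase that acts next and forms lanosterol, was 2.17-fold lower (chr21:46188141-46228824; -1.11 on the log2 scale; adjusted p = 7.64e-11, authors' deposited table). These consecutive enzymes were the lowest of all members, yet 12% of tested genes lay below SQLE and 12.4% below LSS. FDFT1, the squalene synthase just before them, was listed at -0.47 but was not called (adjusted p = 0.584, authors' deposited table). Its fold change was close to that of FDPS, whose adjusted p was many orders of magnitude smaller.

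After lanosterol, the enzymes of methyl removal were lower in 2 of 4 cases and higher in 1, by the authors' deposited table. MSMO1, the monooxygenase that starts the removal of a methyl pair, had a log2 fold change of -0.69 (adjusted p = 3.31e-07, authors' deposited table). NSDHL, the decarboxylating dehydrogenase of the same complex, had -0.78 (chrX:152830967-152869729; adjusted p = 2.71e-06, authors' deposited table). HSD17B7, the ketoreductase that completes this cycle, was listed at -0.01 (adjusted p = 0.977, authors' deposited table). CYP51A1, the cytochrome that removes the first methyl group from lanosterol, was 1.3-fold higher (adjusted p = 0.000925, authors' deposited table). The same reductase step can be carried out by either of 2 proteins, LBR, which also anchors lamins at the nuclear envelope, and TM7SF2. LBR was lower at -0.39 (adjusted p = 1.71e-05) and TM7SF2 was listed at 0.26 without a call (adjusted p = 0.16), both in the authors' deposited table.

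The last steps were divided as well. The isomerase EBP was 1.3-fold lower (adjusted p = 0.00593) and DHCR7, the reductase that ends one route to cholesterol, was 1.29-fold lower (adjusted p = 0.0017), both in the authors' deposited table. SC5D, the desaturase that acts between them, was 1.46-fold higher (adjusted p = 2.26e-05, authors' deposited table). Over the 19 enzymes from ACAT2 to DHCR7, 10 were lower and 4 higher in the authors' deposited table, with a median log2 fold change of -0.38.

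**Figure D2:**
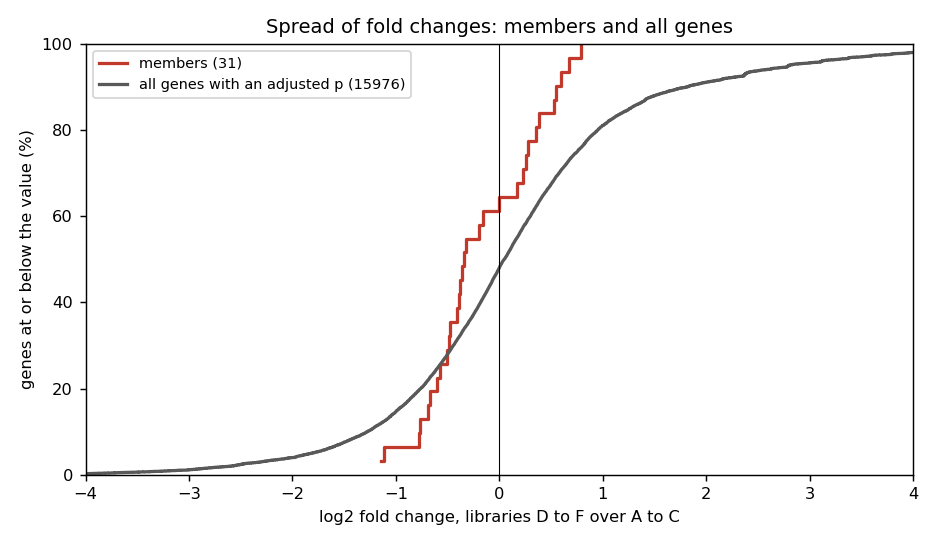
Cumulative share of genes, in percent, at or below each log2 fold change of libraries D to F over A to C, for the 31 members and for all 15976 genes that carry an adjusted p there (authors' deposited table). The horizontal axis is limited to values between -4 and 4. The members lie between -1.15 and 0.79, and the curve of all genes is much wider.

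The genes of SREBP itself were lower in 4 of 5 cases in libraries D to F and higher in the other, in the authors' deposited table. SCAP, the escort of SREBP, had the smallest p-value of this group and was 1.7-fold lower (chr3:47413694-47477126; -0.77 on the log2 scale; adjusted p = 3.15e-17, authors' deposited table). SREBF1, whose products favour fatty acid genes, and SREBF2, whose product favours cholesterol genes, were lower by like amounts. In the authors' deposited table SREBF1 stood at -0.41 (adjusted p = 0.00022) and SREBF2 at -0.34 (adjusted p = 0.00124). The retention proteins moved in opposite directions. INSIG2 was 1.49-fold lower (adjusted p = 0.000441, authors' deposited table), whereas INSIG1, itself a target of SREBP, was 1.17-fold higher (adjusted p = 0.0439, authors' deposited table). INSIG1 had the adjusted p closest to the threshold among the called members. The log2 fold change of INSIG1 was 0.80 above that of INSIG2 from the authors' deposited table, a difference between genes that was not tested.

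Among the genes that move or store sterol, 2 of 4 were lower and 1 higher in the authors' deposited table. NPC1 and NPC2 hand cholesterol out of the lysosome together, and their differences were opposite. NPC1, the membrane protein, was 1.59-fold higher (chr18:23506184-23586898; adjusted p = 1.97e-06, authors' deposited table). NPC2, the soluble carrier inside the lysosome, was 1.25-fold lower (adjusted p = 0.0263, authors' deposited table). STARD4, a cytosolic sterol carrier, was 1.4-fold lower (adjusted p = 5.92e-05, authors' deposited table). SOAT1, which esterifies cholesterol for storage, was listed at -0.16 and not called (adjusted p = 0.138, authors' deposited table).

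The members of the LXR arm were higher in 3 of 3 cases in the authors' deposited table, where 29.7% of all tested genes were higher. NR1H3, which encodes LXR alpha, had the largest increase of all members at 1.73-fold (chr11:47248300-47269032; 0.79 on the log2 scale; adjusted p = 0.00136, authors' deposited table). MYLIP, the ligase that LXR induces, was 1.51-fold higher (adjusted p = 0.0104, authors' deposited table). NR1H2, which encodes LXR beta, was 1.21-fold higher (adjusted p = 0.0253, authors' deposited table). Even the value of NR1H3 was moderate within the comparison, with 75.9% of tested genes below it. Of these calls only that of NR1H3 had an adjusted p under 0.01. Outside the members, RXRA, a receptor counted below with sterol export genes, was 1.93-fold lower (adjusted p = 1.03e-09, authors' deposited table). RXRA was named after its value was seen. The exporter ABCG1 was lower as well, as described below, and ABCA1 was not called (adjusted p = 0.386, authors' deposited table).

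Reads of some members could be shared with other genes, and whether the authors' counting used strand is unknown here. In GENCODE release 29, exons of 15 of the 31 members overlap exons of another gene on either strand. For 14 members an overlap is on the opposite strand. Among these are ACAT2 with TCP1 and SOD2, NR1H3 with ACP2, NPC1 with RMC1 and MVK with MMAB. For 3 members an overlap is on the same strand, TM7SF2 with VPS51, and CYP51A1 and NPC2, which are in both counts. Named pseudogene copies exist for 3 members, 8 for FDPS, 3 for CYP51A1 and 2 for HSD17B7. The values of these members are uncertain to that extent.

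Genes that act on SREBP after it is made were mostly higher where they belong to vesicle transport, and lower for the protease that cuts first. In a list of 23 genes of SREBP cleavage, sorting and turnover, 11 were higher and 5 lower in set D to F in the authors' deposited table (median log2 fold change 0.11). Over all tested genes 29.7% were higher and 27.9% lower. MBTPS1, the Golgi protease that makes the first cut in SREBP, was 3.17-fold lower (adjusted p = 3.26e-50, authors' deposited table). MBTPS2, the protease of the following cut, named after its value was seen, had a log2 fold change of 0.96 (adjusted p = 5.83e-16, authors' deposited table). Of the 8 COPII coat genes in the list, 6 were higher and 1 lower in the authors' deposited table, a subset counted after the values were seen. SEC24A, a cargo adaptor of that coat, was 2.37-fold higher (adjusted p = 1.29e-35), and its partner SEC23B was 1.93-fold higher (adjusted p = 7.78e-29), both in the authors' deposited table.

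Genes that use isoprenoid units for products other than sterols, or that act on prenylated proteins, stood on the other side from the sterol steps. Not all of them use farnesyl diphosphate itself. Of 15 such genes with a value, 9 were higher and 2 lower in set D to F in the authors' deposited table (median log2 fold change 0.31, against -0.38 for the 12 squalene and sterol enzymes), and the difference between the lists was not tested. FNTA, the subunit shared by protein farnesyl and geranylgeranyl transferases, was 2.8-fold higher (adjusted p = 6.03e-28, authors' deposited table). RABGGTB, a subunit of the enzyme that prenylates Rab proteins, was 2.29-fold higher, and RCE1, the protease that trims prenylated proteins, was 1.94-fold higher, both in the authors' deposited table (adjusted p = 2.83e-23 for RABGGTB and 6.65e-16 for RCE1).

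Partners that hand electrons to the sterol enzymes, or hold them together, were lower in 6 of 9 cases and higher in 1 in the authors' deposited table (median log2 fold change -0.41). CYB5A, an electron carrier of the endoplasmic reticulum used by sterol and fatty acid oxidases, was 3.53-fold lower (adjusted p = 1.99e-29, authors' deposited table). ERG28, known from yeast as a scaffold of the methyl-removing complex, was 2.79-fold lower (adjusted p = 6.98e-25, authors' deposited table). CYB5R3, the reductase that charges the carrier, was 1.98-fold lower (adjusted p = 2.08e-22, authors' deposited table). All 3 differences were larger than that of NSDHL and those of CYB5A and ERG28 were larger than that of SQLE, the lowest member.

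**Figure D3:**
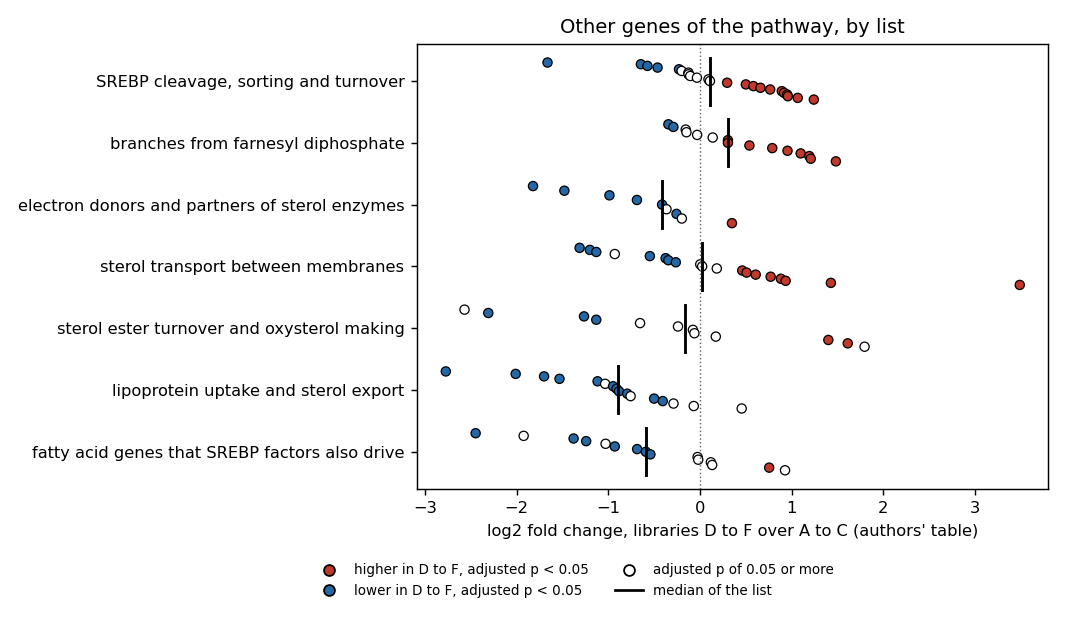
Log2 fold change, libraries D to F over A to C, of the other pathway genes in 7 lists, as listed in the authors' deposited table. Each point is a gene, spread vertically for visibility, filled where the adjusted p is under 0.05, and black bars mark the median of a list. The list labelled as lipoprotein uptake and sterol export, which also holds RXRA, NCOR1 and NCOA1, has its median at -0.90. The list labelled as branches from farnesyl diphosphate, which also holds genes that do not use it, has its median at 0.31.

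In the list of lipoprotein uptake and sterol export, 11 of 16 genes were lower in the authors' deposited table and 5 were not called. The median log2 fold change was -0.90. Besides genes of uptake and export, the list holds the receptor RXRA and the receptor cofactors NCOR1 and NCOA1. RXRA and NCOR1 were among the 11 lower genes, and NCOA1 was not called. LRP1, a large endocytic receptor, was 6.84-fold lower (adjusted p = 5.23e-81, authors' deposited table). The related receptors VLDLR and SORL1 were 3.25-fold and 2.89-fold lower, and LRPAP1, the chaperone of such receptors, was 1.88-fold lower, all in the authors' deposited table (adjusted p = 2.8e-15 for VLDLR, 2.72e-25 for SORL1 and 1.25e-19 for LRPAP1). ABCG1, a sterol exporter known as an LXR target, was 4.03-fold lower (adjusted p = 3.51e-09, authors' deposited table), opposite in direction to the LXR genes and to MYLIP, which is also an LXR target.

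Genes of sterol transport between membranes were divided, with 8 higher and 7 lower of 19 in the authors' deposited table (median log2 fold change 0.02). All tested genes were divided too, with 29.7% higher and 27.9% lower. CAV1, the coat protein of caveolae, was 11.2-fold higher (adjusted p = 1.77e-21), SCP2, a sterol carrier, was 2.3-fold lower (adjusted p = 3.06e-23), and OSBP, which carries sterol from the endoplasmic reticulum to the Golgi, was 1.84-fold higher (adjusted p = 2.24e-18), all in the authors' deposited table. Of 12 genes of sterol ester turnover and oxysterol making, 3 were lower and 2 higher in the authors' deposited table (median log2 fold change -0.16, or -0.24 over the 11 with an adjusted p). LIPA, the lysosomal lipase that frees cholesterol from its esters, was 4.96-fold lower (adjusted p = 5.78e-52), upstream of NPC2 and NPC1 in that route. CYP27A1, which makes an oxysterol ligand of LXR, was 2.4-fold lower (adjusted p = 4.73e-21), and LCAT, a plasma enzyme that esterifies cholesterol, was 3.06-fold higher (adjusted p = 1.5e-15), all from the authors' deposited table.

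Fatty acid genes that SREBP factors also drive were lower in 7 of 15 cases and higher in 1 in the authors' deposited table, with a median log2 fold change of -0.59. Of these 15 genes 2 had no adjusted p, and over the other 13 the median was -0.54. The desaturases SCD and FADS2 were 5.46-fold and 2.37-fold lower in the authors' deposited table (adjusted p = 3.88e-162 for SCD and 7.17e-35 for FADS2). ACLY, which supplies cytosolic acetyl-CoA to both pathways, was 2.6-fold lower (adjusted p = 2.19e-46, authors' deposited table). All 3 differences were larger than that of SQLE, the largest among the cholesterol enzymes at 2.21-fold.

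The members shared promoter letters that the list did not use. RefSeq windows were at hand for 28 of the 31 members, but not for ACAT2, FDFT1 and SQLE. Some genes have several RefSeq starts, and the 28 members had 38 windows. In each window the 250 bases before the start were searched on both strands for 5 motifs. Any gene, member or not, was counted with a motif if at least 1 of its windows held a match. For 26 of the 28, such a window reaches into the span that GENCODE gives the gene. The inverted CCAAT box ATTGG, which NF-Y binds beside SREBP in many sterol genes, occurred in 20 of 28 members (71.4%) and in 40.6% of 12963 genes of the authors' deposited table with such a window. The GC box GGGCGG, the letters of Sp1 sites, occurred in 26 of 28 members (92.9%) and in 68% of those genes. The E-box CACGTG occurred in 3 of 28 members (10.7%) and in 10.3% of the genes. The sterol regulatory element was searched as TCACNCCAC and in a stricter form, the same letters with A before them and C at N, which the looser form overlaps wherever it occurs. Of the 28 members SREBF2 alone held either form, at 134 to 125 bases before the start, while the looser form occurred in 1.22% of the genes and the stricter in 6 of the 12963. The CCAAT letters did not separate the calls, since they occurred in 10 of 14 members that were lower, in 6 of 9 that were higher and in 4 of 5 that were not called. Of these 6, IDI1 and NR1H3 held them only in windows of starts that RefSeq does not list first. The 14 leave out SQLE and ACAT2, which were lower but had no window. In the upstream sequences printed above, NSDHL holds 4 matches to ATTGG, MYLIP holds 2 and LSS holds 1. A match is a run of letters and no evidence of binding, and no match says only that these letters are not in this window.

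**Figure D4:**
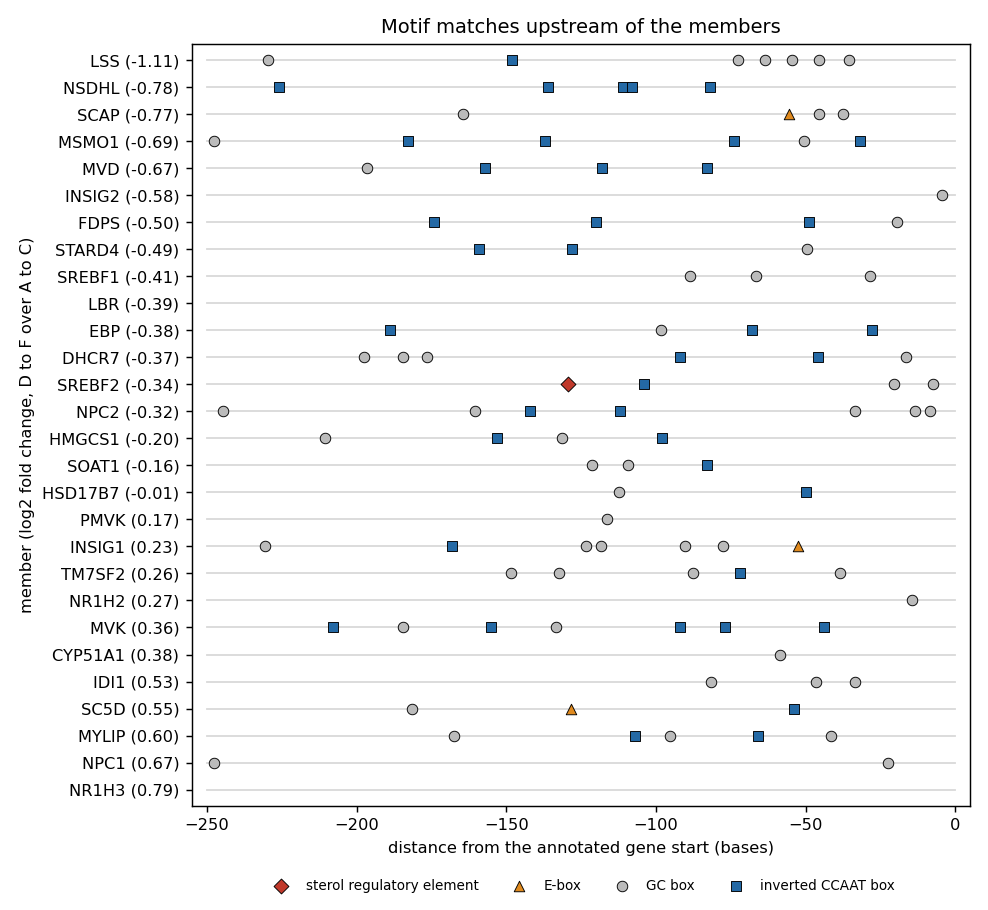
Positions of motif matches on either strand in the 250 bases before the annotated start of 28 members, with members ordered by log2 fold change of libraries D to F over A to C as listed in the authors' deposited table. Where a member has several annotated starts, the one listed first by RefSeq is drawn. Inverted CCAAT boxes occur in members such as LSS and NSDHL near the top and SC5D and MYLIP near the bottom. The letters searched as the sterol regulatory element are at SREBF2, and the drawn windows of NR1H3 and LBR hold no match.

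The line and possible admixture can be described only by differences, since levels were not used. All 7 markers of tuft cell-like small cell lung cancer had a value, and 3 were lower and 1 higher in set D to F in the authors' deposited table, with POU2F3, the factor that defines this subtype, at a log2 fold change of -1.71. Of 4 epithelial markers 3 were higher and 1 lower. Of 5 fibroblast markers 3 were lower, with log2 fold changes of all 5 between -4.22 and 0.89. Of 4 leukocyte markers with a value 1 was higher (all 4 between 0.19 and 4.90), and of the 3 endothelial markers with a value (between 0.84 and 1.78) 0 were called, and 0 also at an unadjusted p under 0.05 under the authors' DESeq2 column names, all in the authors' deposited table. COL1A2, at the upper end of the fibroblast range, and KDR, at the upper end of the endothelial range, had no adjusted p and so could not be called. The part of all these markers in the differences of the cholesterol genes was not tested.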

How the data were processed

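RNA of 6 H1048 samples was sequenced, and the authors deposited a table of their own comparison. Its log2 fold changes and p-values (raw and adjusted) carry DESeq2's column names, per the file headers. Tools named in the submitters' processing notes are STAR, Trimmomatic, HTSeq and DESeq2, with build hg38; their versions, the annotation, the use of strand and any shrinkage are not given. A positive value was taken to mean higher in set D to F, which the table's name puts before set A to C. The 18 columns of values per library were left out by choice, because no label shows which sample a column holds; depth, means and errors are therefore not given, and no count test was run.

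A gene was called at an adjusted p under 0.05. Of 16953 genes, 977 were listed with an adjusted p of 1 and counted as having none; for 15966 genes the deposited value matched a Benjamini-Hochberg adjustment over the other 15976 within a relative tolerance of 1e-06, and for 10 it was listed at 0. Members and lists were chosen with earlier results of these data known. Named genes were all members and, of each other list, the 3 smallest adjusted p-values and called genes whose log2 fold change was at least 1.5 in absolute size. Listed genes without a value were not analysed here. Coordinates are those of GENCODE release 29 (GRCh38), 1-based. Promoter windows are RefSeq's. Their orientation was checked against GENCODE transcripts, with a match for 27 of 28 members. A match meant that a window held a transcript's first bases, or that the bases after the RefSeq start occurred in the first part of a transcript. Alternatives changed the threshold, the adjustment, a fold limit and the centring. Adjustments and motif search were tested on simulated data. Python 3.11.15, pandas 2.3.3, numpy 2.4.6, scipy 1.17.1 and matplotlib 3.10.9 were used.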

Additional observations from a re-analysis of the deposited data

How the results depend on the processing

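At an adjusted p under 0.01, 5 members were called higher and 15 lower in libraries D to F in the authors' deposited table. These are 16.1% and 48.4% of the 31 members, where 25.5% and 24.2% of all tested genes were higher and lower; MVK, INSIG1, NPC2, MYLIP and NR1H2 lost their call. With Holm adjustment 2 were higher and 8 lower (6.45% and 25.8%, against 16.7% and 16.1% of all tested genes). With a limit of 0.5 on the absolute log2 fold change 5 were higher and 9 lower (16.1% and 29%, against 23.3% and 21.7%), so the members' share lower was then closer to that of all genes. With a limit of 1 the numbers were 0 higher and 2 lower, the decreases being 6.45% of members against 11.3% of all tested genes. Adjustment over all rows of the table changed no call of the 31 members. Centring on the median of all genes kept the p-values and so could not change a call, and no member changed direction. Centring moved the members' median log2 fold change to -0.41. No paired analysis was possible because the columns of values per library are not tied by any label to samples and their replicate numbers; fits that leave out a replicate were not run, since these columns were not used. Depth was not judged, and precision shows only through the p beside each fold change.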
